A study of Mus musculus with 4 samples.

Results

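The genes described here are 38 genes of the amino acid stress and unfolded protein responses, taken by name from the 46517 genes of the deposited expression table. All 38 names matched 1 row each. They comprised 8 stress sensors and transcription factors, 3 feedback and effector genes, 7 amino acid and folate-linked enzymes, 4 amino acid transporters, 6 aminoacyl-tRNA synthetases, and 10 chaperones and folding or degradation genes of the endoplasmic reticulum (ER). The feedback and effector genes, enzymes, transporters and synthetases, together with Atf5, Ddit3 and Cebpg, are called the 23 Atf4 targets below. Messenger RNA was sequenced from LSK cells (lineage-negative, Sca-1-positive, c-Kit-positive), a blood-forming fraction enriched for stem cells and multipotent progenitors. The mice were of the C57BL/6 strain and 8 to 10 weeks old. Of the 4 libraries, 2 came from Setd2f/f mice, which keep functional Setd2 on floxed alleles, and 2 from Setd2D/D mice, in which Setd2, the gene for a histone H3 lysine 36 methyltransferase, was knocked out. The driver of the deletion and the number of mice per library are not stated in the labels. Nothing says that replicates came from separate mice, so p-values measure only library-to-library spread, possibly technical.

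Cells meet amino acid shortage and misfolded protein with overlapping programmes. Kinases including PERK (Eif2ak3) phosphorylate the initiation factor eIF2, which slows translation in general and favours translation of the Atf4 mRNA, and the Atf4 protein then switches on genes for amino acid synthesis, uptake and tRNA charging. The ER sensors IRE1 (Ern1) and ATF6, the former through splicing of the Xbp1 mRNA, switch on ER chaperones and degradation genes instead. In haematopoietic stem cells these pathways are known for their part in the control of protein synthesis and of survival under stress. A table of gene-level mRNA shows neither the translation of Atf4 nor the splicing of Xbp1.

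Short motifs that are known to carry these responses were searched in the promoters, to show how the gene groups differ in sequence. RefSeq promoter sequences (GRCm38.p6, 250 bases before to 50 after the start) were given for 33 of the 38 genes. Atf6, Slc7a5, Nars, Cars and Wars had no entry. On either strand, TGATGNAA, the core of the element bound by Atf4 with C/EBP factors, was in the promoters of 6 of 19 Atf4 targets with an entry and 1 of 10 ER genes, against 4.51% of the promoters of 27025 genes. The ER stress element, CCAAT and CCACG with 9 free bases between them, was in 5 of 10 ER genes, in 0 of 19 Atf4 targets and in 0.137% of all. Its variant, ATTGG and CCACG with 1 free base between them, was in Herpud1 alone among the 33 and in 0.0444% of all promoters. A match is a description of letters and no proof of a site. The windows below are written in the direction of each gene, with the motif in capitals and 10 bases on each side. In Asns the motif began 23 bases before the start, and in Hspa5 65 bases before it. Herpud1 carried both TGATGNAA and the variant ER element.
Asns (chr6:7693215-7693242, minus strand): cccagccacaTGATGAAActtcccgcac
Trib3 (chr2:152344029-152344056, minus strand): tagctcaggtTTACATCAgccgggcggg
Chac1 (chr2:119351039-119351066, plus strand): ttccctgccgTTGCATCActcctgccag
Slc7a11 (chr3:50443662-50443689, minus strand): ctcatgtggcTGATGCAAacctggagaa
Gars (chr6:55037961-55037988, plus strand): ggctgcgctaTTTCATCAtgcaccgggc
Herpud1 (chr8:94386307-94386334, plus strand): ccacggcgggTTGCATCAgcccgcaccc
Herpud1, variant ER element (chr8:94386367-94386397, plus strand): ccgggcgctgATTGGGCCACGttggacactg
Hspa5 (chr2:34772015-34772053, plus strand): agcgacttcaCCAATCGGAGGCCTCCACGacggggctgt
Hsp90b1 (chr10:86705628-86705666, minus strand): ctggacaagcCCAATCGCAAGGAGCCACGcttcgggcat
Calr (chr8:84847065-84847103, minus strand): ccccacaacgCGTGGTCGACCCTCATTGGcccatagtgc
Pdia6 (chr12:17266481-17266519, plus strand): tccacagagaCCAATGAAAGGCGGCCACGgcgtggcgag
Dnajc3 (chr14:118937817-118937855, plus strand): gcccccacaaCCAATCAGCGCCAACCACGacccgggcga

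Levels are given in TPM (a length-normalised share of the transcripts of a library), always in the order Setd2f/f replicate 1, Setd2f/f replicate 2, Setd2D/D replicate 1, Setd2D/D replicate 2. Changes are Setd2D/D minus Setd2f/f on the log2(TPM + 1) scale, which understates the change of low genes. They were tested with limma over 14755 genes that reached a TPM of 1 in 2 or more libraries, with p-values adjusted over all of them. Setd2 itself was at 78.9, 68.0, 43.4 and 49.5 TPM, lower in both Setd2D/D libraries, with a ratio of mean TPM of 0.633. The labels do not say which exons are deleted, and TPM of the whole gene does not show the deletion itself. Setd2D/D replicate 1 stood apart from the rest, with a correlation across genes of 0.912 with its own replicate, where the Setd2f/f pair had 0.959. Setd2D/D replicate 2 correlated better with the Setd2f/f libraries (0.934 and 0.942) than with Setd2D/D replicate 1, so the libraries did not group by genotype. Of 8 gate and progenitor markers, 1 lay higher in both Setd2D/D libraries (Kit), against 16.8% of the genes tested. For 3 both lay lower (Ly6a, Cd34 and Flt3), against 27.6%, and Procr, Hlf, Mecom and Slamf1 overlapped. Ly6a, the gene of the gate marker Sca-1, was at 127.5, 124, 46.5 and 80.6 TPM, with an FDR of 3.08e-06 in the authors' deposited table, and Kit was at 224, 249, 301 and 285 TPM. The 8 summed to 1740 and 1619 TPM in Setd2f/f and 1391 and 1275 TPM in Setd2D/D, a sum in which Cd34 weighs most, at 773, 747, 520 and 476 TPM. Markers of other cell types were counted by position, where 16.8% of the genes tested lay higher in both Setd2D/D libraries and 27.6% lower. All 8 erythroid markers were higher in both Setd2D/D libraries, with a summed level of 120 and 171 TPM in Setd2f/f and 467 and 465 TPM in Setd2D/D. The 8 granulocyte-monocyte markers summed to 1843 and 2321 TPM in Setd2f/f and 2731 and 3792 TPM in Setd2D/D, with 5 higher and 2 lower. The 8 B cell markers summed to 513 and 282 against 179 and 249 TPM, with 5 lower. The 7 plasma cell markers summed to 353 and 251 against 233 and 216 TPM, with 2 lower. No marker of these lists was at 0 in all libraries, and their part in the values below was not tested. In a bulk sample, fewer cells of a type and less RNA per cell cannot be told apart.

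The group as a whole was close to level between the genotypes, with a few members standing out. No member passed an adjusted p of 0.05 in limma, against 10 of all genes tested (0.0678%). Setd2, the targeted gene, did not pass either (limma change -0.65, adjusted p = 0.329), with an FDR of 5.84e-06 in the authors' deposited table. The lack of a call is therefore no evidence of no change. The lowest adjusted p among the members was 0.329, for Asns. At an unadjusted p under 0.05, 4 of the 36 members tested were higher in Setd2D/D (Asns, Cars, Nars and Edem1), against 4.17% of all genes, and 2 were lower (Cebpg and Trib3), against 6.99% of all genes. These 6 became 0 without Setd2f/f replicate 1, 1 without Setd2f/f replicate 2, 6 without replicate 1 of Setd2D/D and 7 without its replicate 2, where the lone library of a genotype was assumed to vary like the other pair. At an FDR of 0.05 the authors' deposited table has 3 of the members higher (Asns, Nars and Cars), or 7.89% of them against 1.51% of its 23955 genes. That table has 0 members lower, against 1.64% of its genes. Many of its genes fall outside the expression filter used here. Of the genes tested here, 4.78% passed that FDR, both directions counted together.

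Counted by position alone, 11 members (28.9%) had both Setd2D/D libraries above both Setd2f/f libraries, against 16.8% of the genes tested. For 7 members (18.4%) both lay below, against 27.6%, and 20 overlapped. After quantile normalisation this split was 12 against 4, and after scaling by trimmed means or by median ratios 11 against 5. The backgrounds were then 20.5% and 23.0% for quantiles and 21.5% and 21.7% for trimmed means. The median change of the 38 members was 0.03, beside a median of -0.063 over all genes tested. With quantile normalisation these medians were 0.10 and -0.017. By sign, 22 members were above 0 and 16 below, where 42.1% of the genes tested were above 0. Scaling by trimmed means or by median ratios gave 27 above and 11 below, and quantile normalisation 26 and 12. Of the genes tested, 47.9% to 49.7% were then above 0. The libraries did not contribute evenly. Setd2D/D replicate 2 held the highest value for 14 members (36.8%, against 19.6% of the genes tested) and the lowest for 2 (5.26%, against 27.2%). Setd2f/f replicate 1 held the lowest value for 18 of the 38 members and 14 of the 23 Atf4 targets, a share not counted over all genes.

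**Figure D1:**
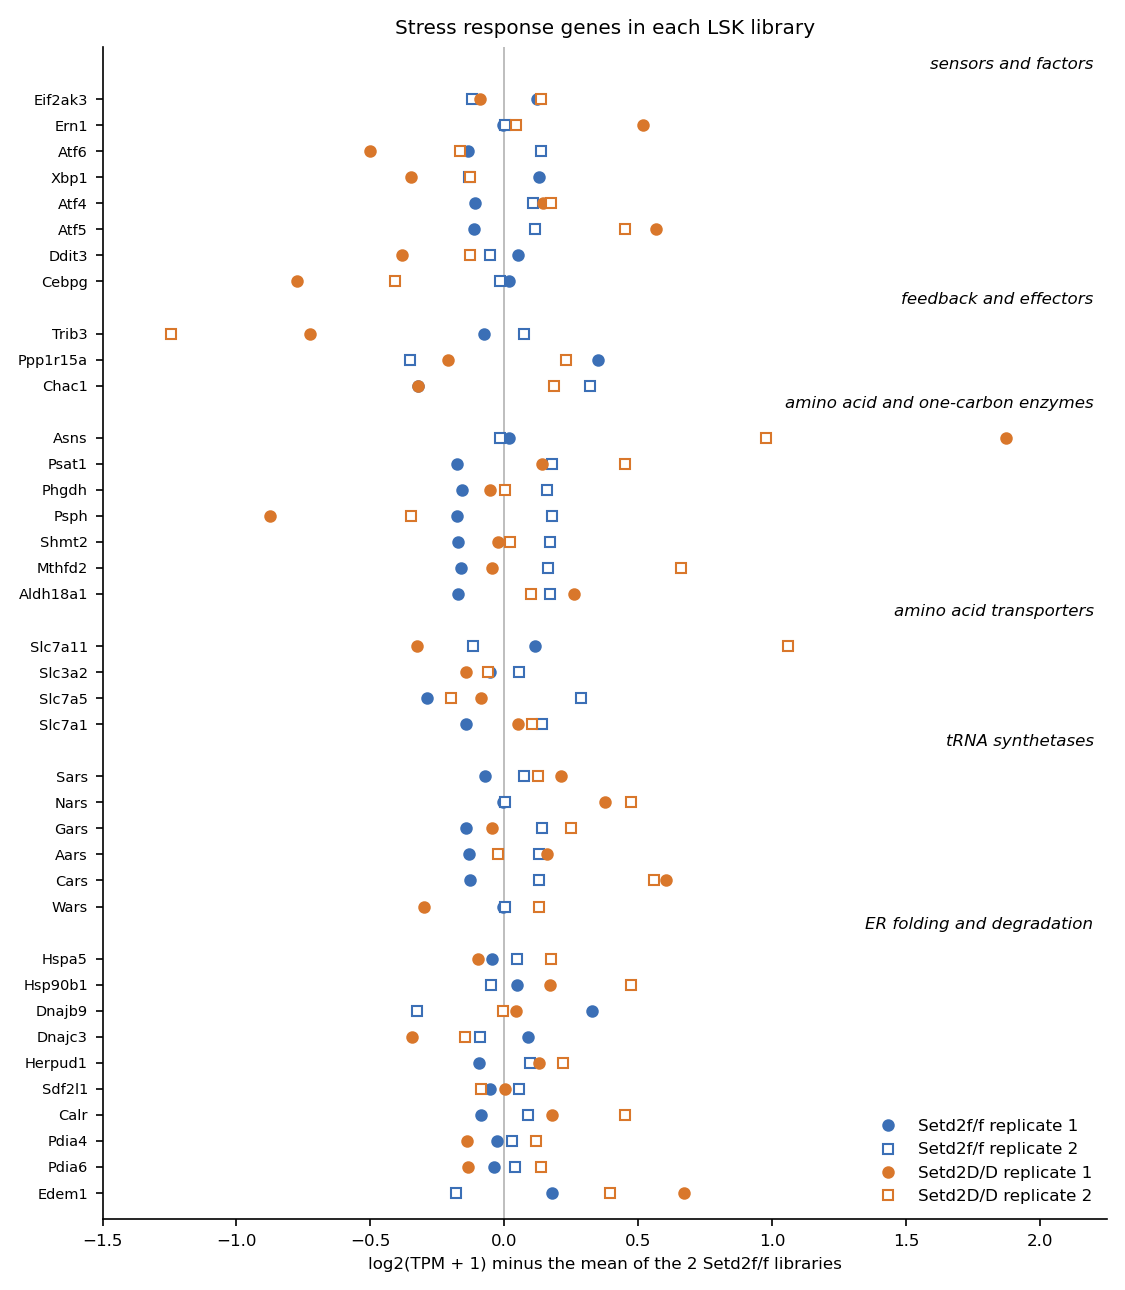
Each point is 1 library: its log2(TPM + 1) minus the mean of the 2 Setd2f/f libraries (horizontal axis), for the 38 genes in their 6 groups (vertical axis). Most points lie within 0.5 of 0, while Asns reaches furthest to the right and Trib3 furthest to the left, with both Setd2D/D libraries beyond both Setd2f/f libraries.

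Among the ER stress sensors, Eif2ak3, the PERK kinase, was at 13.7, 11.4, 11.7 and 13.85 TPM. The genotypes overlapped, and the limma change was 0.02 with a 95% interval from -0.57 to 0.62. Ern1, the IRE1 kinase and nuclease, was at 42.2, 42.4, 60.9 and 43.7 TPM, so that Setd2D/D replicate 1 stood apart from the other 3 libraries. Its change was 0.28 (SE 0.20, adjusted p = 0.625), and 0.04 without that library. Atf6, the membrane-bound factor released by proteolysis, was at 12.6, 15.5, 9.60 and 12.4 TPM. Both Setd2D/D libraries lay below, the higher of them by little, with a change of -0.33 (interval -0.97 to 0.31). Xbp1, whose mRNA is the substrate of IRE1, was at 122, 101, 87.1 and 102 TPM. Its genotypes overlapped, with a change of -0.24 (interval -0.63 to 0.16).

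Atf4 (chromosome 15, 80255184 to 80257541) was at 123, 143, 146 and 149 TPM. The Setd2D/D libraries were the higher ones, but replicate 2 of Setd2f/f lay just below them, and the change was 0.16 (interval -0.15 to 0.47, adjusted p = 0.644). Further factors act with or below Atf4. Atf5, a related factor that is translated under stress, was at 7.97, 9.52, 13.4 and 12.3 TPM, a change of 0.51 (SE 0.23, adjusted p = 0.486). On 82 bases its exons overlap those of Il4i1 on the opposite strand, which was at 2.98, 0.84, 11.7 and 1.33 TPM. Ddit3, which encodes the pro-apoptotic factor CHOP, lay on the other side, at 31.9, 29.55, 23.3 and 28.0 TPM, a change of -0.26 (SE 0.17, adjusted p = 0.614). Its exons share 68 bases with those of Mars on the opposite strand, which was at 53.8 to 71.6 TPM. Cebpg, a C/EBP factor that pairs with Atf4, was at 40.5, 39.6, 23.0 and 29.95 TPM. The Setd2f/f pair was tight and both Setd2D/D libraries were lower, a ratio of mean TPM of 0.661 and a change of -0.59 (SE 0.18, unadjusted p = 0.0253, limma adjusted p = 0.407). For Cebpg the authors' deposited table has a log2 change of -0.31 (FDR 0.289).

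Feedback genes of the pathway were low in these cells. Trib3 (chromosome 2, 152337422 to 152344032), a pseudokinase that restrains Atf4, was at 4.80, 5.43, 2.69 and 1.58 TPM. Both Setd2D/D libraries were below both Setd2f/f libraries, with mean levels of 5.12 ± 0.445 and 2.13 ± 0.785 TPM (SD, n = 2). The change was -0.98 (SE 0.35, unadjusted p = 0.0407, limma adjusted p = 0.433), and the authors' deposited table has -1.34 (FDR 0.504). Ppp1r15a, the GADD34 phosphatase subunit that reverses eIF2 phosphorylation, was at 14.5, 8.56, 9.54 and 13.3 TPM, with the Setd2D/D values between the Setd2f/f values. Chac1, which breaks down glutathione and is a sensitive Atf4 target, was listed at 0, 0.56, 0 and 0.42 TPM and was not tested.

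Asns (chromosome 6, 7675169 to 7693254), asparagine synthetase and a classic Atf4 target, had the largest change of the 38. It was at 14.8, 14.5, 56.4 and 29.8 TPM. Both Setd2D/D libraries were above the Setd2f/f pair. In TPM, though not on the log2 scale, they differed from each other by more than the smaller of them differed from Setd2f/f. Mean levels were 14.7 ± 0.240 TPM and 43.1 ± 18.8 TPM (SD, n = 2), a ratio of 2.94. In limma the change was 1.42 (SE 0.33, interval 0.57 to 2.28, unadjusted p = 0.00826, adjusted p = 0.329). Leaving out Setd2D/D replicate 1 gave 0.98 and leaving out replicate 2 of that genotype gave 1.87, and its adjusted p ranged from 0.145 to 0.949 over the alternatives. The authors' deposited table has 1.61 on the log2 scale (FDR 8.68e-10).

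Of the other 6 enzymes, 5 overlapped between the genotypes and 1, Psph, lay lower in Setd2D/D, as did 27.6% of the genes tested. In the serine pathway, Phgdh, the first enzyme, was at 318, 397, 342.5 and 356 TPM, and Psat1, the next, at 103, 131, 128 and 159 TPM. Both overlapped between the genotypes, with changes of -0.03 (interval -0.38 to 0.32) and 0.30 (interval -0.18 to 0.77). Psph, the last enzyme, was at 38.5, 49.5, 23.4 and 34.1 TPM, with both Setd2D/D libraries below and a change of -0.61 (SE 0.25, adjusted p = 0.464). Over 452 bases, 10.4% of its exon sequence, Psph overlaps Cct6a on the opposite strand, which was at 400 to 534 TPM. Whether strand was kept is not given, so reads from there cannot be assigned. Shmt2, the mitochondrial serine hydroxymethyltransferase, was at 112, 142, 124 and 128 TPM, and Mthfd2, which follows it in mitochondrial folate metabolism, at 24.4, 30.8, 26.5 and 43.9 TPM. Aldh18a1, which starts proline synthesis, was at 47.35, 60.4, 64.2 and 57.3 TPM. All 3 overlapped.

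Of the 4 member transporters, 0 lay higher in both Setd2D/D libraries, against 16.8% of the genes tested. Only 1, Slc3a2, lay lower in both, against 27.6%. Slc3a2, the heavy chain shared by several exchangers, was at 65.1, 70.2, 61.1 and 64.8 TPM, a change of -0.10 (interval -0.42 to 0.22). Its partner Slc7a5, which carries large neutral amino acids, was at 39.6, 59.5, 45.7 and 42.1 TPM. Slc7a1, a carrier of cationic amino acids, was at 21.2, 26.05, 24.4 and 25.4 TPM. The cystine carrier Slc7a11 was at 0.56, 0.33, 0.15 and 2.0 TPM and was not tested. Only 1 library, Setd2D/D replicate 2, exceeded 1 TPM for it.

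Aminoacyl-tRNA synthetases, which charge tRNAs with their amino acid, had a change above 0 for 5 of the 6 members. Cars, for cysteine (chromosome 7, 143557230 to 143600090), was at 25.0, 30.1, 42.2 and 40.8 TPM, a ratio of mean TPM of 1.51. The pairs were well apart, with a limma change of 0.58 (SE 0.16, unadjusted p = 0.0172, adjusted p = 0.390). Cars has a log2 change of 0.51 (FDR 0.0413) in the authors' deposited table. Nars, for asparagine, was at 92.0, 92.5, 119.9 and 128 TPM, a ratio of 1.34 and a limma change of 0.42 (SE 0.11, unadjusted p = 0.0114, adjusted p = 0.345). For Nars the authors' deposited table has 0.48 (FDR 0.0157). Sars, for serine, was at 78.7, 87.1, 96.05 and 90.5 TPM, with the Setd2D/D pair just above. Gars, for glycine (74.55, 91.0, 79.8 and 98.0 TPM), Aars, for alanine (38.95, 46.9, 47.8 and 42.0 TPM), and Wars, for tryptophan (58.1, 58.35, 47.05 and 63.8 TPM), overlapped. Aars shares 1326 bases, 14.3% of its exon sequence, with Exosc6 on the same strand.

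Of the 14 other cytosolic synthetases listed, 12 had a change above 0. Farsa, a phenylalanine synthetase subunit, was at 97.5, 119, 176 and 146 TPM, a limma change of 0.57 (SE 0.16, unadjusted p = 0.0169, adjusted p = 0.390). In the authors' deposited table the log2 change is 0.54 (FDR 0.00407) for Farsa and 0.46 (FDR 0.0266) for Mars, the methionine enzyme. Iars, for isoleucine, was at 60.1, 70.8, 97.1 and 78.2 TPM and Mars at 53.8, 57.5, 59.4 and 71.6 TPM, with both Setd2D/D libraries higher for each. Farsb, the other phenylalanine subunit, was at 91.5, 104, 67.7 and 104 TPM, with a change of -0.21. Over all 20 synthetases, 17 had a change above 0, where 42.1% of the genes tested did. In 7 of them both Setd2D/D libraries lay above both Setd2f/f libraries, against 16.8% of the genes tested, and in 0 below, against 27.6%, with a median change of 0.10. After the 3 rescalings, 17 stayed above 0, and between 10 and 12 had both libraries above, against 20.0% to 21.5% of the genes tested. Setd2f/f replicate 1 held the lowest value for 15 of the 20 synthetases and the highest for 0. The synthetase counts were not made with a library left out, so their dependence on that library was not tested. No synthetase passed limma over all genes, while 3 were higher at an unadjusted p under 0.05, against 4.17% of all genes, and 4 were higher in the authors' deposited table, against 1.51% of its genes.

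**Figure D2:**
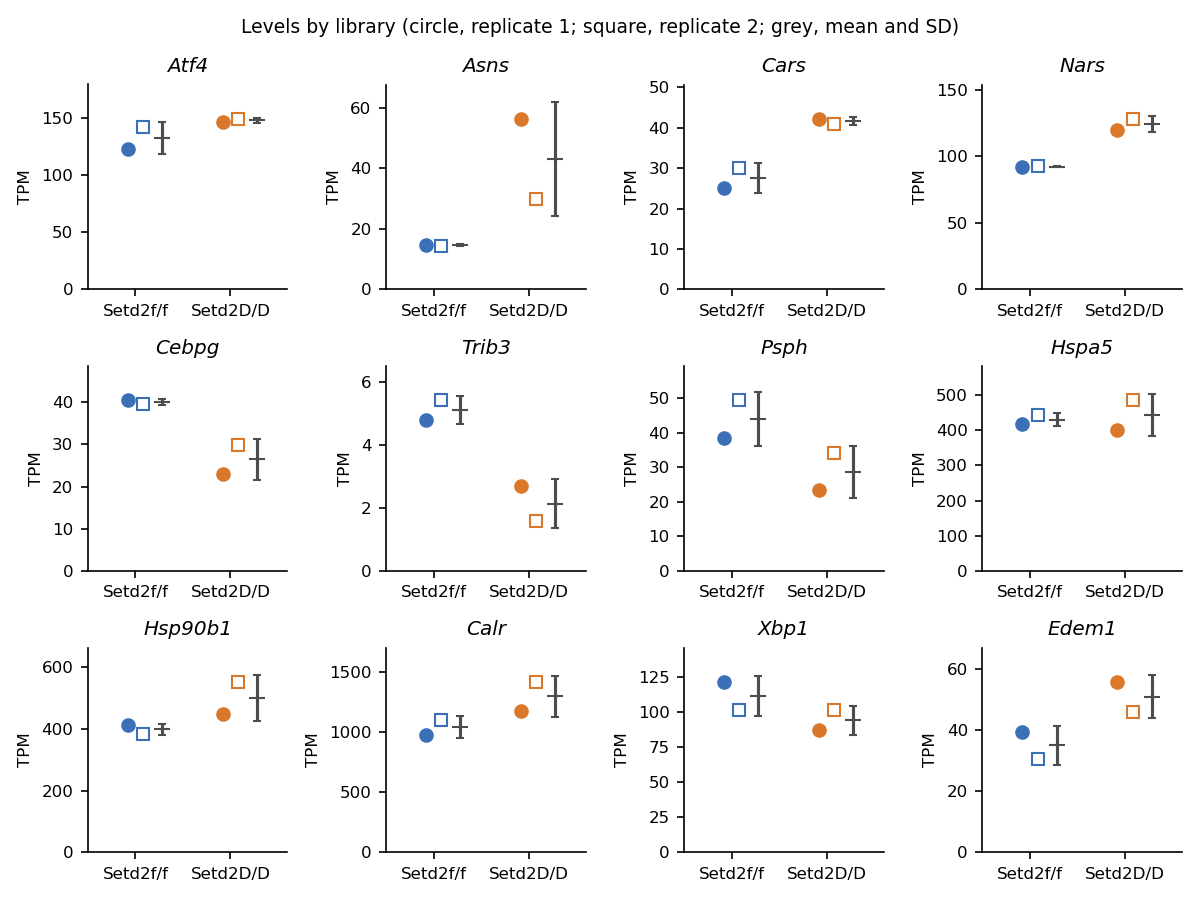
TPM (vertical axis, from 0) of 12 of the genes in each library, with the mean and SD of each genotype (n = 2) in grey. The Setd2D/D libraries of Cars and Nars sit together above Setd2f/f, those of Asns sit above but far apart at 56.4 and 29.8 TPM, those of Cebpg, Trib3 and Psph sit below, and those of Hspa5 straddle Setd2f/f.

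The ER chaperones Calr, Hsp90b1 and Hspa5 had the highest TPM of the 38 members. Calr, the lectin chaperone calreticulin, was at 975, 1101.5, 1171 and 1416 TPM, with both Setd2D/D libraries above and a change of 0.31 (interval -0.03 to 0.66, adjusted p = 0.471). The authors' deposited table has 0.38 for Calr (FDR 0.0610). Hspa5, the central ER chaperone BiP and the usual readout of ER stress, was at 416, 444, 401 and 485 TPM. The Setd2D/D pair straddled the Setd2f/f pair, with a limma change of 0.04 and an interval from -0.29 to 0.36. Hsp90b1, the ER form of HSP90, was at 411, 385, 447 and 553 TPM, a change of 0.32 (interval -0.02 to 0.67, adjusted p = 0.465). On 415 bases it overlaps the pseudogene 1810014B01Rik on the opposite strand, at 6.54 to 16.7 TPM.

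The protein disulfide isomerases Pdia6 (191, 202, 179 and 216 TPM) and Pdia4 (78.9, 82.0, 72.9 and 87.45 TPM) followed the order of Hspa5, lowest in Setd2D/D replicate 1 and highest in Setd2D/D replicate 2. Replicate 2 of Setd2D/D held the highest value for 6 of the 10 ER genes, against 19.6% of the genes tested, and replicate 1 the lowest for 4, against 34.1%. Of the co-chaperones Dnajc3, Dnajb9 and Sdf2l1, the genotypes overlapped for all but Dnajc3. Dnajc3 was at 42.3, 37.3, 31.1 and 35.8 TPM, Dnajb9 at 28.3, 17.6, 23.1 and 22.3 TPM, and Sdf2l1 at 54.8, 59.15, 57.05 and 53.5 TPM. Herpud1, which serves ER-associated degradation, was at 85.0, 97.0, 99.3 and 106 TPM. Edem1, which steers misfolded glycoproteins to degradation, was at 39.4, 30.5, 55.8 and 45.9 TPM, a ratio of mean TPM of 1.46 and a limma change of 0.53 (SE 0.20, unadjusted p = 0.0432, adjusted p = 0.436). In the authors' deposited table the log2 change of Edem1 is 0.17 (FDR 0.750).

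The comparison of the arms in each library showed no shift between the genotypes beyond their spread. Averaged over the 23 Atf4 targets, log2(TPM + 1) was 4.91, 5.08, 4.99 and 5.14 in the 4 libraries, and over the 10 ER genes 6.91, 6.85, 6.93 and 7.05. The Atf4 mean minus the ER mean was -2.0 and -1.77 in Setd2f/f and -1.94 and -1.91 in Setd2D/D. Both Setd2D/D values lay between the Setd2f/f values, and the genotypes differed by -0.04, less than the pooled SD between libraries of 0.115. The difference was -0.15 without Setd2f/f replicate 1, 0.08 without Setd2f/f replicate 2, and 0.01 with genes at a TPM of at least 5. Median changes were 0.07 for the Atf4 targets, with 13 above 0 and 10 below, and 0.03 for the ER genes, with 6 above and 4 below. The Atf4 targets were spread more widely, from -0.98 (Trib3) to 1.42 (Asns), than the ER genes, from -0.24 (Dnajc3) to 0.53 (Edem1). By position, 5 of the 23 Atf4 targets (21.7%) lay above, 5 (21.7%) below and 13 overlapped, and 4 of the 10 ER genes lay above, 1 below and 5 overlapped, against 16.8% above and 27.6% below among the genes tested.

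**Figure D3:**
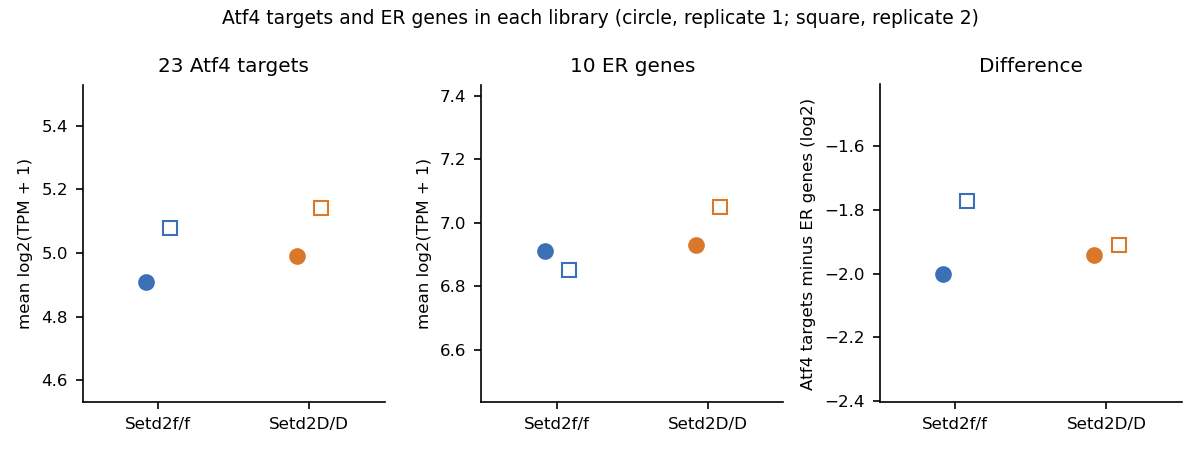
Mean log2(TPM + 1) of the 23 Atf4 targets (left), of the 10 ER genes (middle) and their difference (right) in each library, 1 point per library, on axes that each span 1 log2 unit. In the right panel both Setd2D/D points, at -1.94 and -1.91, lie between the Setd2f/f points at -2.0 and -1.77.

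Other genes of the pathways, 87 in 6 lists, were counted in the same way. Of these 80 were tested and 0 passed limma over all genes. At an unadjusted p under 0.05, 5 were higher (6.25%, against 4.17% of all genes) and 2 lower (2.5%, against 6.99%). Among the 5 higher, Cbs (0, 0.96, 3.74 and 2.95 TPM) reached a TPM of 1 in 2 libraries only through Setd2D/D. Farsa and Mars, 2 of the 87 (2.30%, against 1.51% of its genes), were higher in the authors' deposited table and 0 lower. Of the genes tested here, 4.78% passed an FDR of 0.05 in that table, both directions counted together. Among 14 genes of eIF2, its exchange factor and its kinases, Eif2b4, a subunit of the exchange factor, was at 45.5, 57.75, 29.0 and 27.2 TPM, a change of -0.85 (SE 0.18, unadjusted p = 0.00532, adjusted p = 0.298). The amino acid sensing kinase Eif2ak4 (GCN2) was at 21.3, 22.4, 21.4 and 22.8 TPM, level across libraries. Slc1a5, a glutamine carrier, was at 105.5, 104.9, 124 and 146 TPM, a change of 0.35 (SE 0.12, adjusted p = 0.428). Mthfd1l, of mitochondrial folate metabolism, was at 38.05, 49.5, 64.6 and 53.4 TPM (adjusted p = 0.486). Of 26 further ER genes, 3 lay above by position (11.5%, against 16.8% of the genes tested) and 4 below (15.4%, against 27.6%). They included both directions among enzymes of 1 kind, since the disulfide isomerase P4hb was at 309, 323, 378 and 391 TPM (change 0.28) and Pdia3 at 397, 417, 309 and 346 TPM (change -0.32). Canx, the membrane-bound partner of calreticulin, was at 280.05, 317, 231 and 263 TPM (change -0.27). For Canx the authors' deposited table has a log2 change of 0.02 (FDR 0.984), without that decrease.

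The authors' deposited table was not always of the same sign as the TPM values. For 7 of the 38 members (18.4%) the signs differed, against 13.8% of the genes tested. Aldh18a1 was the widest apart of these, with a change of 0.18 from TPM and one of -0.26 (FDR 0.452) in the authors' deposited table. The others were Eif2ak3, Shmt2, Slc7a5, Sdf2l1, Pdia4 and Pdia6, each within 0.20 of 0 in both tables. For Asns, Nars, Cars, Cebpg and Trib3 the signs matched.

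**Figure D4:**
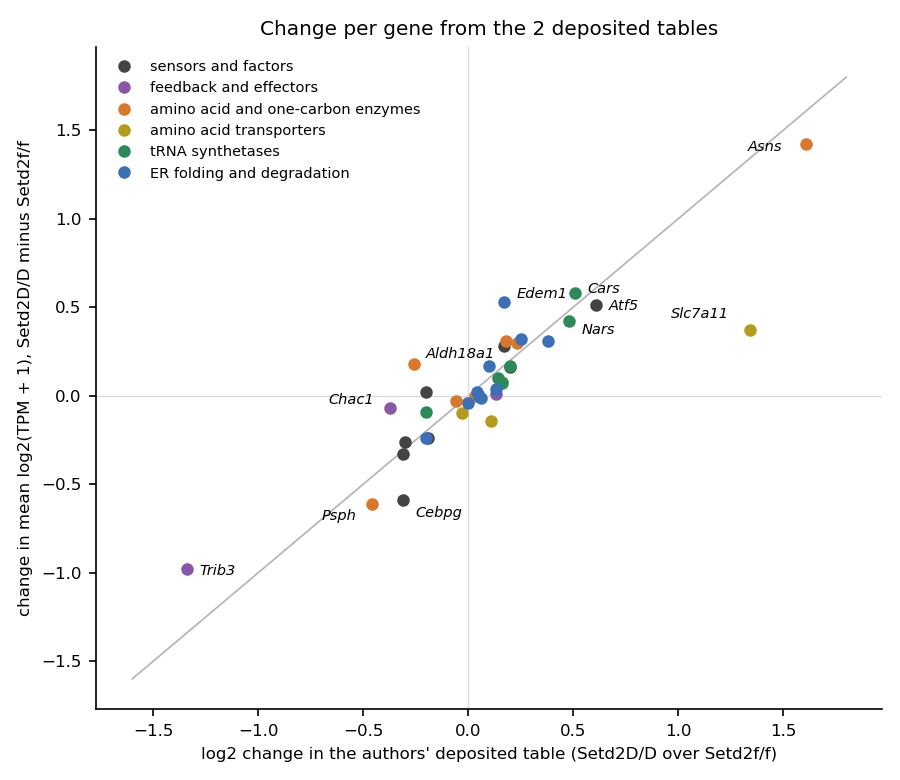
Each point is 1 of the 38 genes, with the log2 change in the authors' deposited table on the horizontal axis and the change in mean log2(TPM + 1) on the vertical axis, Setd2D/D against Setd2f/f in both. The grey line marks equal values: Asns, Cars and Nars lie near it at the upper right, Trib3, Edem1 and Aldh18a1 above it, and the low-level gene Slc7a11 far below it.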

How the data were processed

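The authors deposited TPM values for 46517 genes in 4 libraries. A deposited comparison of 23955 genes lists the fold change (a ratio), its log2 value, log2 CPM, F (a score) and p-value with FDR. Per the submitters' processing notes, cutadapt, RSEM, edgeR and build mm10 were involved, in roles and versions not given there. Strand is not stated. TPM holds no read counts, so depth per library is unknown and no count model was fitted. Gene names split by a comma were joined in 5 and 2 rows.

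Values were transformed to log2(TPM + 1). limma 3.58.1 in R 4.3.3 was fitted on all 14755 genes that reached a TPM of 1 in 2 or more libraries, with genotype as the 1 term, an abundance trend, two-sided tests and Benjamini-Hochberg adjustment, and was tested on simulated data. The smallest p of an exact permutation test between 2 pairs of libraries is 0.333. Intervals are 95% limma intervals. Coordinates are from GENCODE M21 (GRCm38, which is mm10), and 46005 gene identifiers matched. Promoter windows are shown for 12 of the 16 matches, and some of the others are not reported here. Values per library are given for fixed key genes and for members past an unadjusted p or an authors' FDR of 0.05, or not overlapping with a change of at least 0.5. Values of the remaining members are given as description. Up to 3 further pathway genes per list were named by smallest p, while Eif2ak4, Farsb, Ly6a and genes listed in the closing section were named after their values were seen. Markers of macrophages, mast cells, and endothelium with stroma were listed too. Their summed levels were 55.3 and 62.4 against 109 and 88.9 TPM, 85.9 and 79.2 against 117 and 138 TPM, and 125 and 98.3 against 90.5 and 84.4 TPM. By position, 2 of 6 macrophage markers lay higher and 1 lower, 4 of 6 mast cell markers higher and 0 lower. Of these mast cell markers, Gzmb, Fcer1a and Cma1 were below 1 TPM in both Setd2f/f libraries. Of 7 endothelial and stromal markers 0 lay higher and 1 lower, and 5 were below 1 TPM in all libraries. Among the genes tested, 16.8% lay higher and 27.6% lower. Alternatives were other pseudocounts, filters, scalings and variance moderation, the replicate block, each library left out, and 3 chosen after seeing the data. The members and lists were chosen with earlier results of these data known.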

Additional observations from a re-analysis of the deposited data

How the results depend on the processing

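Over all genes, 10 passed an adjusted p of 0.05, but 3 with a pseudocount of 0.1, 19 without the abundance trend, 0 with no filter, 0 with the replicate block and between 0 and 0 when any 1 library was left out. Members past it numbered 0 under each of these settings. The deviations of same-numbered libraries correlated at r = 0.0414 across genes, so the replicate numbers are not taken to pair the libraries, and the replicate block gave 7 members with an unadjusted p under 0.05 where the fit without it gave 6. That number ranged from 0 to 7 when a library was left out. The median change of the Atf4 targets was then -0.06 to 0.22 and that of the ER genes 0.02 to 0.15. Members with both Setd2D/D libraries below numbered 4 after quantile normalisation. This count was not made with a library left out, since fewer orders of the libraries then exist. At an FDR of 0.01, 1 member is higher in the authors' deposited table. With the stricter motif TGATGCAA, 3 Atf4 targets had a match. Of 17 named members tested, 15 kept their sign under all 14 alternatives (13 for Trib3, which the filter at TPM 5 leaves out). The exceptions, with a library left out, were Eif2ak3 (-0.10 to 0.15, and -0.09 without Setd2D/D replicate 2) and Hspa5 (-0.10 to 0.17, and -0.01 without Setd2f/f replicate 1). Leaving out Asns, or Asns and Trib3, chosen after seeing the data, gave -0.10 and -0.05 for the difference between the arms. The cause of these shifts was not tested. Chac1 and Slc7a11 are too low for a change to be read from TPM.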

Other observations

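Of 11 further stress genes linked to Atf4, 4 lay higher in both Setd2D/D libraries (Nupr1, Stc2, Atf3 and Vegfa). For 3 both lay lower (Sesn2, Vldlr and Jdp2), where the shares of the genes tested were 16.8% higher and 27.6% lower. Only 8 of the 11 were tested. Stc2 was not, and Atf3 reached a TPM of 1 in 2 libraries only through Setd2D/D, so these 2 cannot be read against those shares. Of 9 further amino acid transporters, 4 lay higher (Slc1a5, Slc1a4, Slc6a9 and Slc7a3) and 1 lower (Slc7a6), against 16.8% and 27.6% of the genes tested. Slc7a3 was not tested. Slc1a4 (0.55, 1.40, 2.10 and 2.94 TPM) and Slc6a9 (1.11, 1.81, 5.60 and 2.34 TPM) were low. Atf3, Stc2, Slc7a3, Cth and Fgf21 were picked out after their values were seen. Nupr1, a small stress-induced nuclear protein, had 2.66 and 2.74 TPM in the Setd2f/f pair against 10.2 and 5.60 TPM in the Setd2D/D pair, a limma change of 1.22 (SE 0.38, adjusted p = 0.404), where the authors' deposited table has a log2 change of 0.37 (FDR 0.934). The stress-induced factor Atf3 was at 0.12 and 0 against 1.31 and 1.02 TPM. Cbs, which links homocysteine to cysteine synthesis, was at 0 and 0.96 against 3.74 and 2.95 TPM. Stc2, a secreted glycoprotein, was at 0.21 and 0.12 against 4.41 and 0.62 TPM. The cationic amino acid carrier Slc7a3 was at 0.06 and 0 against 0.67 and 4.66 TPM, so that a different Setd2D/D library was high for each of these last genes. Jdp2, a repressor related to Atf3, was at 16.4 and 17.0 against 7.56 and 12.5 TPM (limma adjusted p = 0.464). Cth, the enzyme after Cbs, was at 0.13 and 0.70 against 0 and 0 TPM. Sesn2, which restrains mTORC1 under amino acid stress, was at 6.94 and 5.28 against 2.87 and 3.37 TPM, lower in both Setd2D/D libraries (limma adjusted p = 0.461), and Fgf21 was listed at 0 in all 4 libraries. None of those listed passed an FDR of 0.05 in the authors' deposited table.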
